A study of Mus musculus with 40 samples.

Results

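The first segment of the proximal tubule (S1) was studied as nuclei of the kidney that remained after removal of the other one. A nucleus counted as S1 where the coarser of the 2 deposited annotations named it PTS1, which takes in the nuclei that the finer annotation split into PTS1 and UNx PTS1. This held 2697 of 16500 nuclei, and the other proximal segments, PTS2 and PTS3, held 2088 and 1671. All mice were male C57BL/6 animals of 8 to 12 weeks with no engineered allele named in the labels, and the right kidney was taken 24 h after surgery. In the unilateral nephrectomy (UNx) group the left kidney had been removed, and the sham group had surgery without removal of a kidney. Nuclei came from 2 sham and 2 UNx mice. Each library was 1 mouse, a piece across the kidney whose nuclei were sorted by the DNA stain DAPI and read from the 3′ end of transcripts. The labels place sham 1 and UNx 1 (mice 71 and 70) in batch 3 and sham 2 and UNx 2 (mice 77 and 78) in batch 4. Whole-kidney RNA of 6 sham and 6 UNx mice of the same time point, all other animals of batch 1, was set beside the S1 values.

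The S1 cell receives the glomerular filtrate first and takes back most of its glucose, amino acids, bicarbonate, phosphate and filtered protein. Sodium-coupled carriers and the endocytosis receptors megalin and cubilin work at its brush border, and other carriers pass the solutes on to the blood side. It burns fatty acids and other fuels rather than glucose, and it makes glucose, ammonia and precursors of creatine. After loss of a kidney the proximal tubule of the other one is known to enlarge, mainly by cell growth.

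The 4 libraries differed by batch as well as by surgery. S1 nuclei numbered 959, 538, 770 and 430 in sham 1, sham 2, UNx 1 and UNx 2, the order used for all values per mouse, and their counts summed to 10176857, 7646124, 9921857 and 4773080 UMIs (unique molecules). The median UMI number per S1 nucleus was 10423, 10785, 12414 and 8358. The median mitochondrially encoded share was 0.414%, 4.70%, 0.643% and 6.39%, so it was high in both batch 4 mice and, within each batch, higher in the UNx mouse. Nuclei over 30000 UMIs, which may hold more than 1 cell, numbered 0, 35, 1 and 23. Any 2 libraries shared 1 to 7 cell barcodes, and at most 1 among S1 nuclei.

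The markers set for the class bore out the label. Slc5a2 (SGLT2, the high-capacity glucose carrier of early proximal tubule) averaged 738.6 ± 40.2 counts per 1000000 (CPM, here of the plain sum of UMIs; SD, n = 4 mice) in S1 nuclei. It averaged 70.3 ± 53.5 in PTS2, 62.0 ± 65.0 in PTS3 and 85.8 ± 81.5 in nuclei outside the proximal tubule. Slc5a12, a sodium-lactate carrier, averaged 3833 ± 2121 in S1 nuclei and 172 ± 77.4 in PTS2. Lrp2 (megalin) did not set S1 apart from PTS2, with 2312 ± 700 against 2601 ± 810, but was lower outside the proximal tubule at 598 ± 589. Slc7a13, a carrier of the last proximal segment, averaged 124 ± 111 in S1 nuclei and 2858 ± 1059 in PTS3. These levels describe the class and were not tested, because the annotation rests on gene expression.

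RNA of other cell types in the S1 nuclei differed between batches. The 6 thick ascending limb markers summed to 545, 2545, 547 and 3260 CPM, and the 4 connecting tubule markers to 86.8, 1171, 83.1 and 997 CPM. The 7 endothelial markers summed to 26.5, 193, 24.1 and 132 CPM and the 7 macrophage markers to 13.8, 70.5, 12.3 and 53.1 CPM. The 5 red cell markers reached 135, 720, 107 and 643 CPM. Each of these 5 lists was several-fold higher in both batch 4 mice than in both batch 3 mice, and the sham and UNx ranges overlapped. The 7 T, B and NK cell markers stayed at or below 1.26 CPM in sum, with Cd3e at 0 in every mouse, and Ly6g of neutrophils was at 0 as well. No tested member of these lists was called between UNx and sham.

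S1 nuclei made up 17.95% of all nuclei in sham 1 (95% exact Clopper-Pearson interval 16.93 to 19.01%) and 20.37% in sham 2 (18.85 to 21.96%). They made up 14.95% in UNx 1 (13.99 to 15.95%) and 12.77% in UNx 2 (11.66 to 13.95%). The group means were 19.16% ± 1.71 in sham and 13.86% ± 1.54 in UNx (SD, n = 2), and the groups did not overlap. Of proximal tubule nuclei alone, S1 took 45.2% and 50.1% in sham and 39.1% and 33.3% in UNx. An exact permutation test of 2 mice against 2 cannot go below a two-sided p of 0.333, so no share was tested, and the intervals cover counting error only. The finer annotation named 945 and 522 of the sham S1 nuclei PTS1 and 14 and 16 UNx PTS1. In the UNx mice it named 14 and 61 PTS1 and 756 and 369 UNx PTS1.

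**Figure D1:**
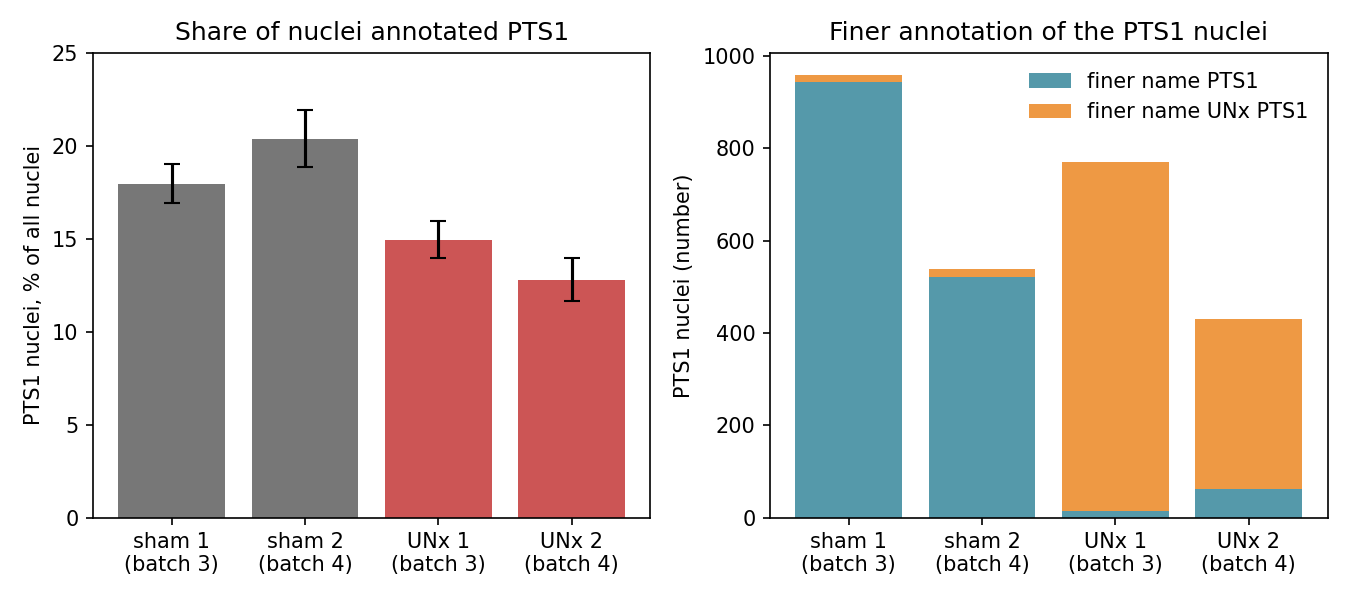
Left, S1 nuclei (annotated PTS1) as a percentage of all nuclei in each of the 4 mice, with exact 95% intervals for counting error; the sham mice had 17.95 and 20.37% and the UNx mice 14.95 and 12.77%. Right, number of S1 nuclei per mouse, split by the finer annotation into PTS1 and UNx PTS1; nearly all sham nuclei have the first name and most UNx nuclei the second.

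At 24 h the S1 nuclei of the remaining kidney had less RNA of Keg1, Gldc, Nmrk1 and Gpt2, enzymes of glycine, NAD and alanine metabolism, and of Cish and Socs2, which damp cytokine receptor signalling. They had more RNA of Slc25a25, Tyw3, Chst11, Il34 and Pck1. Of the 3 S1 markers none was called, and all were below 0, with log2 fold changes of −0.02 for Slc5a2, −0.44 for Slc5a12 and −0.66 for Lrp2. These calls come from edgeR's quasi-likelihood test with the labelled batch as a block, which called 249 of 14933 genes (1.67%) at an adjusted p under 0.05, with 98 higher (0.656%) and 151 lower (1.01%) in UNx. Without the block, the primary test called 0 genes, with 182 at an unadjusted p under 0.05, and DESeq2's Wald test called 8. The 0 does not show that no gene changed. "Rose" and "fell" are used below only for genes called with the block, whose fit has 1 residual degree of freedom and cannot be repeated without any 1 mouse.

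The 2 batches could be compared directly. Over the 5304 genes whose mean log2 CPM reached 5, the difference UNx 1 minus sham 1 in batch 3 correlated with UNx 2 minus sham 2 in batch 4 at Pearson r = 0.503 and Spearman rho = 0.382 across genes, which are not independent replicates. Over the same genes, batch 4 minus batch 3 correlated between sham and UNx mice at r = 0.893 and rho = 0.772. The median absolute log2 difference was 0.292 for sham 2 minus sham 1 and 0.151 for UNx 1 minus sham 1. Of the 98 genes that rose, 66 had both UNx mice above both sham mice, and of the 151 that fell, 87 had both below. Over all genes tested, 9.98% had both UNx mice above and 10.5% both below. Rises were mostly under 2-fold, with 33 of 98 beyond it, whereas 90 of the 151 falls were beyond 2-fold and 12 beyond 4-fold. Protein-coding genes made up 91 of the rises and 89 of the falls, and the other 62 falls were long noncoding or other transcripts. Of all 249 called genes, 109 overlap a tested gene on the opposite strand whose mean log2 CPM reached 1. That share was not computed over all tested genes, so it says nothing particular of the called genes. The counting is not stated to use strand, and whether reads of such pairs were told apart was not tested.

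**Figure D2:**
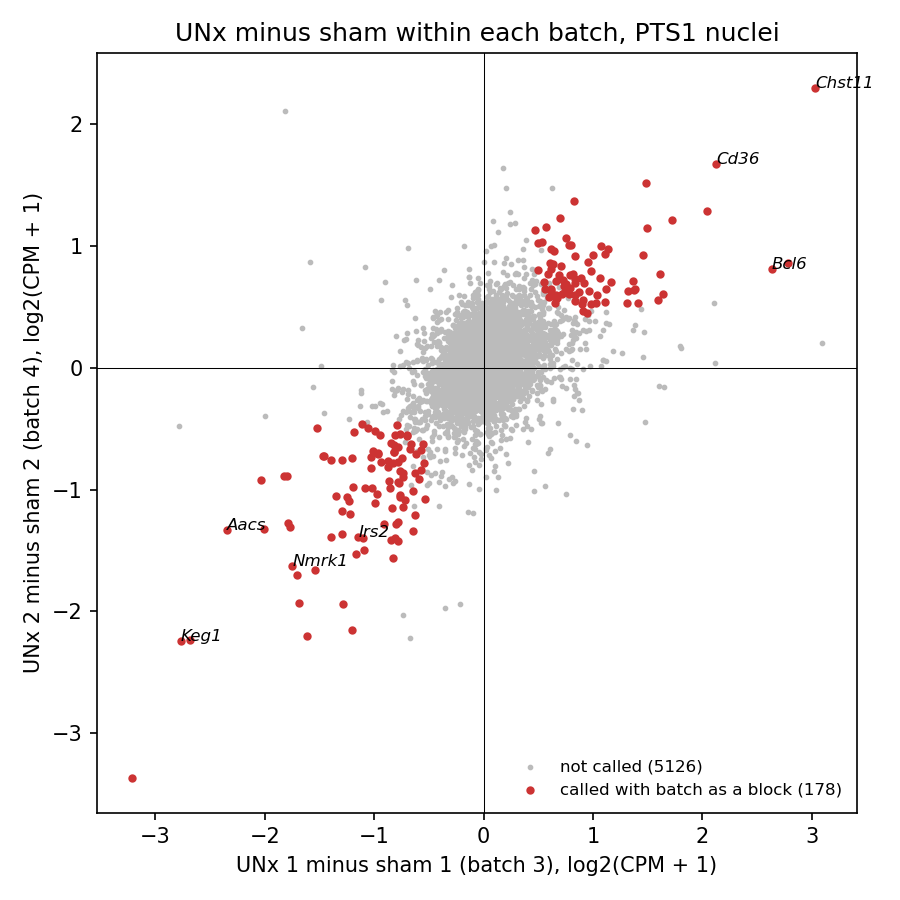
Each point is 1 of the 5304 genes whose mean log2 CPM reached 5; the horizontal axis gives UNx 1 minus sham 1 and the vertical axis UNx 2 minus sham 2, both in log2(CPM + 1). Red points mark the 178 of these genes called with batch as a block; Keg1 and Nmrk1 lie low and Chst11 and Cd36 high in both batches.

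Keg1 was the called gene with the highest counts behind it, and it fell. It belongs to the glycine N-acyltransferase family and is found mainly in kidney. Levels per mouse from here on are CPM scaled with TMM factors unless stated. Those outside the proximal tubule are CPM of the plain sum. Keg1 stood at 6579.7 and 4284.8 CPM in the sham mice and 965.6 and 905.2 CPM in the UNx mice, so the groups were far apart. Its log2 fold change was −2.51 ± 0.21 (SE) with an adjusted p of 0.00124, and from 1.72e-55 to 0.0019 over 9 other settings of the blocked fit. Keg1 lies on chromosome 19 at 12695786 to 12719902 on the plus strand (GENCODE M21, GRCm38). An antisense transcript, Gm15962, overlaps it at 12706055 to 12721247. Gm15962 stood at 483.7, 58.0, 51.1 and 4.72 CPM and fell by 3.34 ± 0.15 on the log2 scale (adjusted p = 4.29e-05). Sham 2 and UNx 1 were close for this transcript, and within each batch the UNx mouse was far below the sham mouse.

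Among the other listed enzymes of glycine and one-carbon metabolism only Gldc was called with Keg1. Of 23 listed genes 21 were tested, and Keg1 and Gldc were the 2 that fell, with none rising. Over all genes 1.01% fell and 0.656% rose. Both UNx mice were below both sham mice in 6 of the 21 and above in 3, beside 10.5% and 9.98% of all genes. The list's median log2 fold change was 0.07 beside −0.03 for all genes. Gldc encodes the decarboxylase of the glycine cleavage system and stood at 596.9, 611.7, 264.9 and 211.3 CPM. It fell by 1.35 ± 0.14 (adjusted p = 0.00329, 8.28e-19 to 0.00686 over the other settings). Both UNx mice were well below both sham mice. Gatm, which makes the creatine precursor guanidinoacetate, stood at 1049, 761.6, 602.1 and 551.4 CPM and did not pass the test (−0.63 ± 0.15, adjusted p = 0.0754), though it did in 6 of 9 other settings (3.82e-04 to 0.0842).

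Gpt2, the mitochondrial alanine aminotransferase, stood at 61.2, 55.5, 22.6 and 20.6 CPM and fell by 1.43 ± 0.15 (adjusted p = 0.00303). Pck1, the enzyme that commits oxaloacetate to glucose synthesis, stood at 208.2, 411.7, 556.5 and 595.8 CPM and rose by 0.98 ± 0.20 (adjusted p = 0.0468). The sham mice differed from each other by more than the UNx mice did, and Pck1 was called in 7 of 9 other settings, with adjusted p-values from 1.43e-09 to 1. These were the 2 of 18 gluconeogenesis and ammonia genes that were called, beside 1.67% of all genes, and the list's median was 0.18.

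Nmrk1, the nicotinamide riboside kinase of NAD synthesis, stood at 679.2, 446.9, 201.4 and 144.1 CPM. It fell by 1.69 ± 0.13 (adjusted p = 0.000874, 1.81e-29 to 0.0014) and was chosen here after its values were seen. Steroid dehydrogenase genes fell as well. Hsd3b4 stood at 56.3, 69.2, 7.92 and 14.0 CPM (−2.58 ± 0.18, adjusted p = 0.000542). Hsd3b2, also picked after its values were seen, stood at 884.6, 487.6, 376.0 and 227.8 CPM (−1.17 ± 0.13, adjusted p = 0.00521). Genes of this cluster are near-identical copies, so reads may have been divided between them.

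Nuak2, Zfp810, Vgll4 and Cbfb, named by the same rule, fell as well. Nuak2, a kinase of the AMPK family, stood at 343.3, 288.1, 84.5 and 114.4 CPM (−1.68 ± 0.17, adjusted p = 0.00261). Zfp810, a zinc finger gene, stood at 172.3, 129.3, 49.8 and 51.5 CPM (−1.57 ± 0.15, adjusted p = 0.00162). In both genes each UNx mouse was below the lower sham mouse by more than 2-fold. Vgll4, which opposes YAP at TEAD transcription factors, stood at 233.7, 243.8, 110.0 and 122.2 CPM and fell by 1.04 ± 0.12 (adjusted p = 0.00521). Cbfb, the partner subunit of RUNX factors, stood at 79.3, 77.5, 39.9 and 37.4 CPM and fell by 1.02 ± 0.13 (adjusted p = 0.00929). Nuak2 and Zfp810 were called in 9 of 9 other settings of the blocked fit, which include the finer-named PTS1 nuclei alone. Vgll4 and Cbfb lost the call among finer-named PTS1 nuclei alone, at adjusted p-values of 0.191 and 0.257. That subset kept only 14 and 61 nuclei of UNx 1 and UNx 2, and its name was made from the same expression values. A kept call, a lost call or a smaller effect there therefore decides nothing about a gene.

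Cish, of the JAK-STAT5 axis, had the steepest fall of the genes named here. In this pathway growth hormone and related cytokines activate JAK2 and STAT5 through receptors such as that of growth hormone, and STAT5 turns on Cish and Socs2, which then damp the receptor, and acts on Bcl6, a repressor. STAT5 binds the palindrome TTCNNNGAA, which reads the same on both strands. Because these genes and Keg1 changed, the 250 bases before the RefSeq start were searched (GRCm38.p6); 7.02% of 32851 such windows hold at least 1 match, 0.317% at least 2 and 0.0274% at least 3. The windows of Keg1 (chr19:12695540-12695789, plus strand), of both Bcl6 starts (chr16:23981284-23981533 and chr16:23988853-23989102, minus strand) and of Cish (chr9:107296409-107296658, plus strand) are shown 5′ to 3′, with the matches in capitals.
Keg1: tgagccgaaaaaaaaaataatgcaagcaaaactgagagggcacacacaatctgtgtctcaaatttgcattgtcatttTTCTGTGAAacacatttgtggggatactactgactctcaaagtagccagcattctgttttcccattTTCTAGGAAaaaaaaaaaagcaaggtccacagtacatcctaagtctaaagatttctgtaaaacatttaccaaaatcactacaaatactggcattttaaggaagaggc
Bcl6, inner start: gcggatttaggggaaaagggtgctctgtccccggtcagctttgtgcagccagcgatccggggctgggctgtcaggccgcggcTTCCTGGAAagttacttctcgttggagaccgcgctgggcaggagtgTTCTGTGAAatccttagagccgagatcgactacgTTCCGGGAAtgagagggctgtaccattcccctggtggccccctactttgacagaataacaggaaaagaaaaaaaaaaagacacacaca
Bcl6, outer start: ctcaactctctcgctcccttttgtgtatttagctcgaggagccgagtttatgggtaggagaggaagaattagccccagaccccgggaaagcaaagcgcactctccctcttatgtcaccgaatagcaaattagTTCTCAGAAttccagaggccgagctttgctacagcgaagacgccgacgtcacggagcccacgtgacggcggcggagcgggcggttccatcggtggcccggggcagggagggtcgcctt
Cish: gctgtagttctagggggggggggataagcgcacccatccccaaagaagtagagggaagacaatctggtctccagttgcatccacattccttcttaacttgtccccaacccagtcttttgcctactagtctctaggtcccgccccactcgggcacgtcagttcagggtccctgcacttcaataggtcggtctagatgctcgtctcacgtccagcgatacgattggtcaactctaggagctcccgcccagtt

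The Keg1 window has 2 matches, beginning 173 and 107 bases before the start. The inner Bcl6 window has 3, beginning 168, 122 and 88 bases before it, and the outer window has 1, beginning 118 bases before it. The Cish window has none. A match is a run of letters and not a measured site, and a window without one says nothing of STAT5.

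Cish stood at 48.6 and 42.1 CPM in the sham mice and at 1.23 and 5.37 CPM in the UNx mice. It fell by 4.05 ± 0.40 on the log2 scale (adjusted p = 0.00218, 1.07e-61 to 0.005 over 8 other settings), and it was 1 of the 8 genes that DESeq2 called without a block (adjusted p = 0.000677). In nuclei outside the proximal tubule Cish stood at 36.2, 44.2, 23.0 and 11.8 CPM, so the UNx S1 nuclei lay below that level and the sham S1 nuclei near it. Socs2 stood at 15.7, 38.6, 5.86 and 5.58 CPM and fell by 2.04 ± 0.30 (adjusted p = 0.0156, 6.36e-17 to 0.0238). Bcl6, chosen after its values were seen, went the other way, with 17.4, 33.1, 113.5 and 58.6 CPM. It rose by 1.78 ± 0.35 (adjusted p = 0.0413) and was called in 7 of 9 other settings, with adjusted p-values from 5.65e-24 to 0.551. Outside the proximal tubule Bcl6 stood at 56.7, 66.3, 103 and 102 CPM, at or above the S1 level in all but UNx 1.

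The upstream members were not called, which with 1 residual degree of freedom does not show that they were unchanged. Ghr, the growth hormone receptor, stood at 2021, 2738, 2175 and 2847 CPM (log2 fold change 0.08 ± 0.17). Jak2 was at 0.13 ± 0.15, Stat5a at 0.27 ± 0.22 and Stat5b at 0.27 ± 0.14, with adjusted p-values from 0.47 to 0.897. Of the 18 listed genes 15 were tested, 1 rose and 2 fell, and the median was 0.08. Over all genes 0.656% rose and 1.01% fell. In the list of IGF, insulin and mTORC1 signalling, Irs2 was the 1 gene of 25 tested that was called, beside 1.67% of all genes. Irs2 encodes an adaptor of the insulin receptor, stood at 48.1, 44.5, 21.2 and 16.3 CPM and fell by 1.30 ± 0.16 (adjusted p = 0.00725). Igf1r (0.09 ± 0.15), Insr (−0.09 ± 0.13) and Mtor (0.47, adjusted p = 0.1) did not pass the test.

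**Figure D3:**
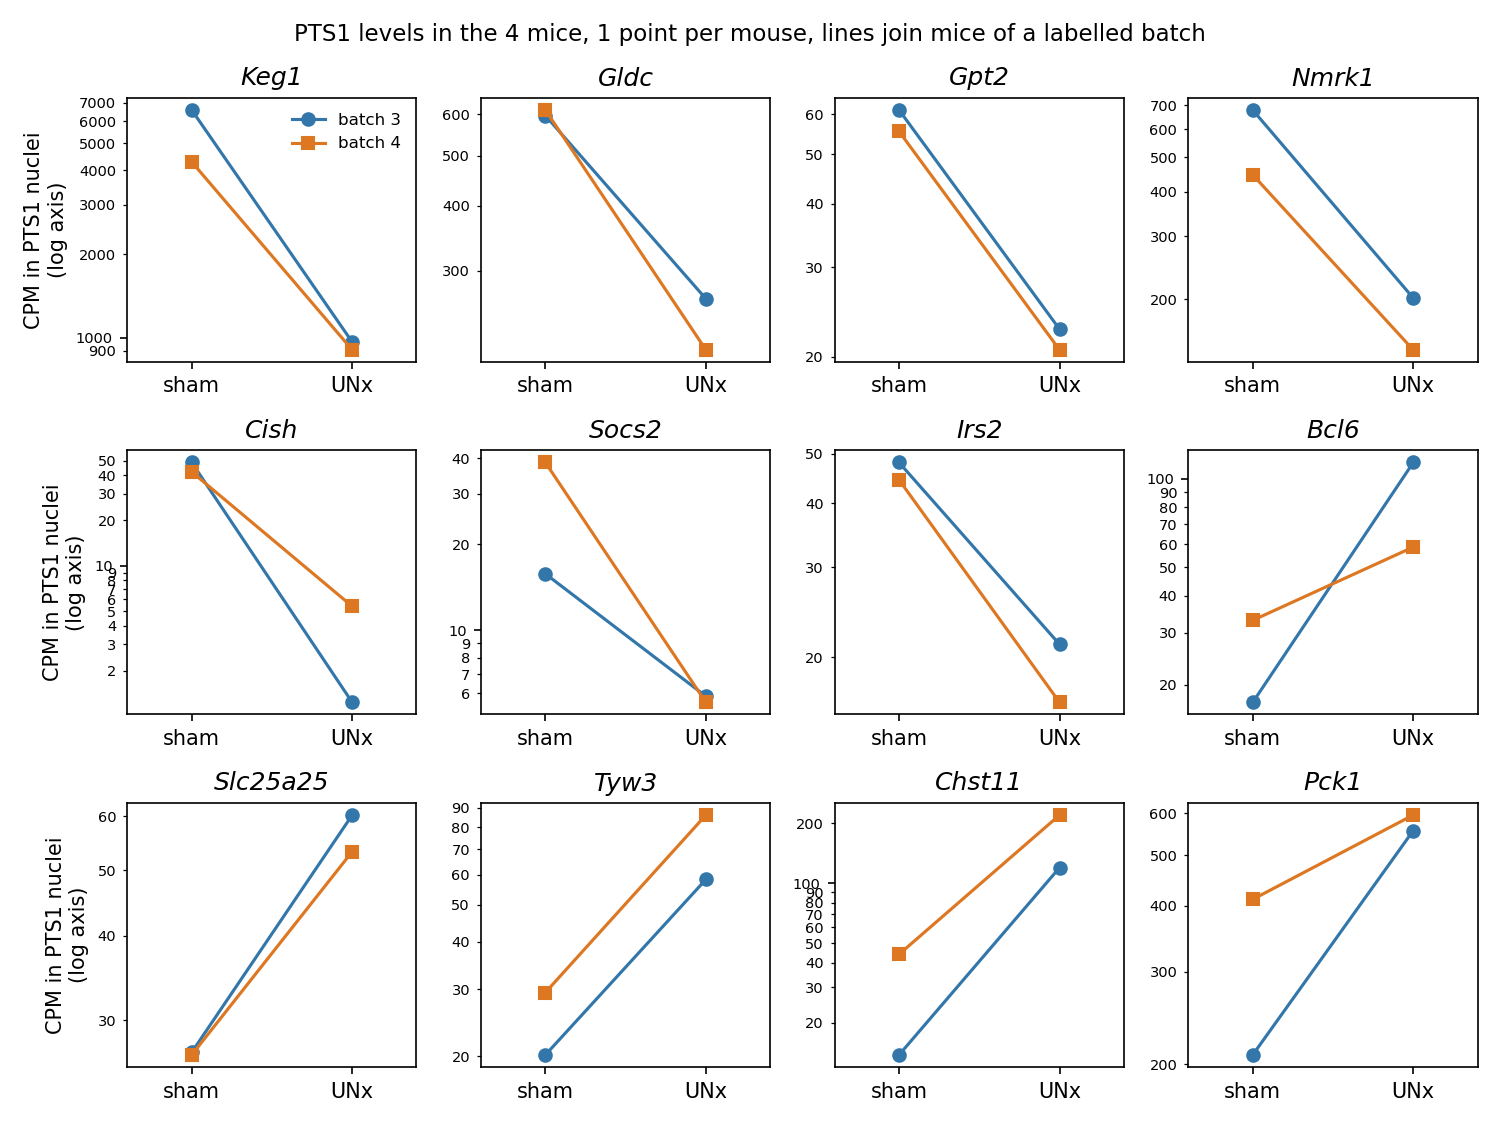
Level in S1 nuclei of 12 genes, in TMM-scaled CPM on log axes, 1 point per mouse; lines join the sham and UNx mouse of a labelled batch (circles batch 3, squares batch 4). Keg1, Gldc, Gpt2, Nmrk1, Cish, Socs2 and Irs2 slope down and Bcl6, Slc25a25, Tyw3, Chst11 and Pck1 up in both batches.

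Among the rises, Slc25a25, a calcium-regulated carrier of ATP-magnesium and phosphate across the inner mitochondrial membrane, stood at 26.9, 26.7, 60.3 and 53.2 CPM. It rose by 1.08 ± 0.15 (adjusted p = 0.0105). Tyw3, an enzyme that modifies transfer RNA, stood at 20.2, 29.4, 58.3 and 86.1 CPM and rose by 1.54 ± 0.14 (adjusted p = 0.00154). In both genes the UNx mice were clear of the sham mice. G0s2, an inhibitor of the triglyceride lipase ATGL, rose by 1.37 ± 0.16 from 14.8 and 22.7 to 43.5 and 51.3 CPM (adjusted p = 0.00617). Il34, a ligand of the macrophage receptor CSF1R, stood at 14.2, 27.7, 61.2 and 68.9 CPM and rose by 1.71 ± 0.20 (adjusted p = 0.00521, 6.41e-21 to 0.00967). Outside the proximal tubule Il34 stood at 74.2, 64.9, 81.3 and 97.0 CPM, above S1 in all 4 mice.

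The other named rises were Cyp2j13, Sgpp1, Osbpl10 and Ugt1a8. Cyp2j13, a cytochrome P450, stood at 367.1, 326.1, 791.5 and 621.1 CPM and rose by 1.02 ± 0.14 (adjusted p = 0.01). Sgpp1, a sphingosine-1-phosphate phosphatase, stood at 82.9, 75.9, 135.7 and 135.7 CPM and rose by 0.77 ± 0.12 (adjusted p = 0.0182). Osbpl10, an oxysterol-binding protein, stood at 86.9, 87.8, 145.7 and 140.0 CPM and rose by 0.71 ± 0.12 (adjusted p = 0.0251). Ugt1a8 rose by 0.92 ± 0.14 and Ugt1a9 by 0.84 ± 0.16 (adjusted p = 0.0181 and 0.0391), but these glucuronosyltransferases share exons and cannot be separated. Among finer-named PTS1 nuclei alone the blocked log2 fold change of Cyp2j13 was −0.22 and that of Ugt1a8 0.05. Neither these nor Slc25a25, Tyw3, G0s2, Sgpp1 or Osbpl10 were called there. With 14 and 61 UNx nuclei, named from the same expression values, that subset cannot decide whether these genes rose.

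Chst11 and Cd36 had the steepest rises among named genes and were chosen after their values were seen. Chst11, a sulfotransferase of chondroitin chains, stood at 13.8, 44.0, 119.8 and 219.9 CPM and rose by 2.69 ± 0.19 (adjusted p = 0.000542, 5.71e-64 to 0.0013). Both UNx mice were above both sham mice. Cd36, a fatty acid carrier of the plasma membrane, stood at 8.02, 52.4, 38.4 and 169 CPM, with overlapping groups, and rose by 1.93 ± 0.17 (adjusted p = 0.00129). Outside the proximal tubule Chst11 stood at 110, 88.9, 118 and 201 CPM and Cd36 at 41.4, 71.3, 67.8 and 238 CPM. For Cd36 every mouse was higher there than in S1. With nuclei thinned to 3000 UMIs, 33.5% of S1 nuclei of UNx 2 had a Cd36 UMI, beside 38.4% of medullary thick ascending limb nuclei. The part of RNA from other nuclei in these results was not tested. Of the 98 genes that rose, 50 were higher in S1 than outside the proximal tubule in all 4 mice and 20 lower in all 4. Of the 151 that fell, 66 were higher and 37 lower. These counts set TMM-scaled levels in S1 beside plain CPM outside, and were not made over all tested genes. They are therefore not read as a trait of the called ones.

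Of the 9 S1 markers, 3 on the main list and 6 on the further one, 1 fell (Cubn), none rose, and 3 were above 0, beside 1.01% of all genes that fell. Slc5a2 stood at 797.3, 693.4, 758.2 and 713.5 CPM (log2 fold change −0.02 ± 0.14, adjusted p = 0.979) and Slc34a1, the main phosphate carrier, at 5268, 6210, 5447 and 6121 CPM (0.01 ± 0.20, adjusted p = 0.988). The groups overlapped in both. Slc5a12 stood at 6720, 2378, 4295 and 2019 CPM (−0.44 ± 0.19, adjusted p = 0.376), with a larger gap between batches than between groups. Slc6a19, the neutral amino acid carrier of the brush border, was at −0.28 ± 0.14, Slc2a2, the glucose exit carrier GLUT2, at 0.27 ± 0.13, and Slc4a4, the bicarbonate exit carrier, at 0.20 ± 0.19. None of these passed the test.

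Both endocytosis receptors had log2 fold changes below 0. Cubn (cubilin) stood at 1065, 755.3, 714.3 and 421.5 CPM and fell by 0.71 ± 0.14 (adjusted p = 0.0475). It was called in 7 of 9 other settings, with adjusted p-values from 4.14e-05 to 0.649. Its partner Lrp2 stood at 2800, 2785, 1403 and 2241 CPM, with both UNx mice below both sham mice, and did not pass the test (−0.66 ± 0.20, adjusted p = 0.174), though it did in 2 of 9 other settings (4.04e-04 to 0.185). Cubn was the 1 of 17 endocytosis genes that was called, beside 1.67% of all genes, and the list's median was −0.03.

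Of 22 tested genes listed as sodium-coupled or apical carriers 3 rose and none fell. Of 29 basolateral and organic ion carriers 3 rose and 1 fell. Over all genes 0.656% rose and 1.01% fell. The medians of these lists were 0.11 and 0.27, beside −0.03 for all genes. The 1 that fell, Slc7a7, passes cationic amino acids to the blood. It stood at 1347, 820.4, 576.2 and 356.0 CPM and fell by 1.21 ± 0.14 (adjusted p = 0.00521, 7.03e-15 to 0.00739). Both UNx mice were below both sham mice. The risers, some of them named after their values were seen, included carriers usually found further down the proximal tubule. Slc22a6 (OAT1, the organic anion carrier of the second segment) stood at 60.1, 195.6, 186.0 and 333.2 CPM and rose by 1.19 ± 0.19 (adjusted p = 0.0194). Slc22a7 (OAT2) rose by 1.38 ± 0.23 and Slc22a2 (OCT2, for organic cations) by 0.74 ± 0.12. Slc5a8 (for lactate and other short anions) rose by 0.82 ± 0.14, Slc5a10 (SGLT5) by 0.69 ± 0.13 and Slc13a3 (for dicarboxylates) by 0.62 ± 0.13, with adjusted p-values from 0.0264 to 0.0475 for these 5 genes. Within each batch the UNx mouse was higher for each of them, but sham 2 was at or above UNx 1 in all 6.

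Outside the proximal tubule Slc22a6, Slc22a7, Slc22a2, Slc5a8 and Slc5a10 showed the same order of mice. The level of Slc13a3 there is not given here. In CPM of the plain sum, Slc22a6 stood there at 19.9, 168, 42.0 and 278 CPM, Slc22a7 at 8.65, 33.9, 16.9 and 94.9 CPM and Slc22a2 at 17.5, 113, 26.4 and 195 CPM. Slc5a8 stood at 10.1, 91.2, 18.5 and 144 CPM and Slc5a10 at 7.95, 67.5, 8.75 and 97.1 CPM. Slc22a7 and, in batch 4, Slc5a8 were higher there than in S1 nuclei. The part of RNA from other nuclei in these rises was not tested. Among finer-named PTS1 nuclei alone the log2 fold change was 0.21 for Slc22a6 and −0.68 for Slc13a3, and 5 of the 6 genes, all but Slc22a7, lost the call there. Only 14 and 61 UNx nuclei had that name, which was made from the same expression values, so the lost calls decide nothing about these carriers.

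The lists of fatty acid oxidation, peroxisome and cholesterol genes had 1 called member each, beside 1.67% of all genes called. Ehhadh, the bifunctional enzyme of peroxisomal fatty acid oxidation, stood at 99.3, 116.4, 27.8 and 62.5 CPM and fell by 1.37 ± 0.20 (adjusted p = 0.0165). It was the 1 of 30 genes of fatty acid oxidation and PPARA targets that was called, and the list's median was 0.03. Hao2, a peroxisomal hydroxy acid oxidase, stood at 40.8, 52.1, 23.6 and 24.5 CPM and fell by 0.93 ± 0.16 (adjusted p = 0.0266), the 1 of 29 peroxisome genes. In cholesterol synthesis 1 of 25 genes was called. That was Acat2, the cytosolic thiolase, at 82.4, 63.3, 39.1 and 44.7 CPM (−0.80 ± 0.16, adjusted p = 0.0471, called in 6 of 9 other settings). The fatty acid synthesis list had 0 of 16 called and a median of 0.14. Aacs, which activates acetoacetate for lipid synthesis and was on no list, fell by 1.86 ± 0.22 (adjusted p = 0.00521), from 128.9 and 187.9 CPM to 24.5 and 73.9 CPM, and was picked after its values were seen.

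Mitochondrially encoded genes had the highest median of the 28 gene lists, 0.60. All 13 were above 0, and 3 rose, beside 0.656% of all genes. The 3 were mt-Nd1 (0.71 ± 0.15), mt-Nd3 (0.89 ± 0.13) and mt-Nd5 (0.98 ± 0.17), with adjusted p-values of 0.0475, 0.0135 and 0.0271. All 3 encode subunits of complex I. The levels of mt-Nd5 were 57.3, 963.4, 93.8 and 2256 CPM, and no gene of the list had groups that did not overlap. The mitochondrial share in nuclei outside the proximal tubule moved in the same order as in S1, with medians of 0.809%, 5.91%, 1.36% and 8.78%. This RNA does not come from the nucleus, and its part was not tested. The 39 nuclear-encoded respiratory chain genes had 0 calls and a median of −0.06.

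The lists of ribosome assembly and cell division had no called gene, beside 1.67% of all genes called, a share at which lists of this size hold few or no calls. Ribosome assembly had 0 of 26 called with a median of 0.01, DNA replication 0 of 19 with 0.13, mitosis 0 of 10 tested of 22 listed with −0.12, and G1 cyclins, Myc and CDK inhibitors 0 of 15 with −0.12. Top2a, a mitosis gene, stood at 3.07, 1.63, 1.75 and 0.86 CPM, so such genes were close to the limit of detection. Mcm6, of the replicative helicase, stood at 10.8, 9.52, 14.8 and 19.8 CPM (0.73, adjusted p = 0.176). Of the EGF family 1 of 16 was called, the ligand Nrg1 (271.1, 178.3, 93.8 and 126.5 CPM, −1.02 ± 0.21, adjusted p = 0.0498), while Egfr was at −0.07 ± 0.13. In the Hippo list Vgll4 was the 1 of 18. FoxO targets and autophagy had 0 of 22 called.

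Of the lists of stress, injury, hypoxia, glucocorticoid and clock genes, 5 had no called gene and 2 had 1 in each direction, beside 1.67% of all genes called. The unfolded protein and ATF4 response had 0 of 22 called, NRF2 targets 0 of 18, immediate early genes 0 of 14, glucocorticoid response 0 of 18 and the circadian clock 0 of 18. The glucocorticoid list had the lowest median of the 28 lists, −0.22. Of 19 tested injury and dedifferentiation genes, Itgb8, an integrin, rose by 0.69 ± 0.12 (246.4, 197.6, 391.1 and 324.2 CPM, adjusted p = 0.0305), and Spp1 (osteopontin) fell by 0.79 ± 0.16 (101.7, 220.2, 46.6 and 159.1 CPM, adjusted p = 0.0475). Havcr1 (KIM-1) and Krt20, read as the classic injury markers of this cell, had too few counts to be tested. In the hypoxia list Ndrg1 fell by 0.82 ± 0.14 from 1239 and 967.5 to 744.6 and 517.7 CPM (adjusted p = 0.0292). Egln3, a HIF prolyl hydroxylase, rose by 1.68 ± 0.31 (adjusted p = 0.0364) at 1.68, 5.76, 7.41 and 14.6 CPM and was called in 5 of 8 other settings. The transcription factors of the proximal tubule had 0 of 26 called, with Hnf4a at 440.8, 337.0, 432.0 and 398.1 CPM (0.10, adjusted p = 0.816). In all, 13 of the 28 lists had no called member, among the 640 list genes tested.

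**Figure D4:**
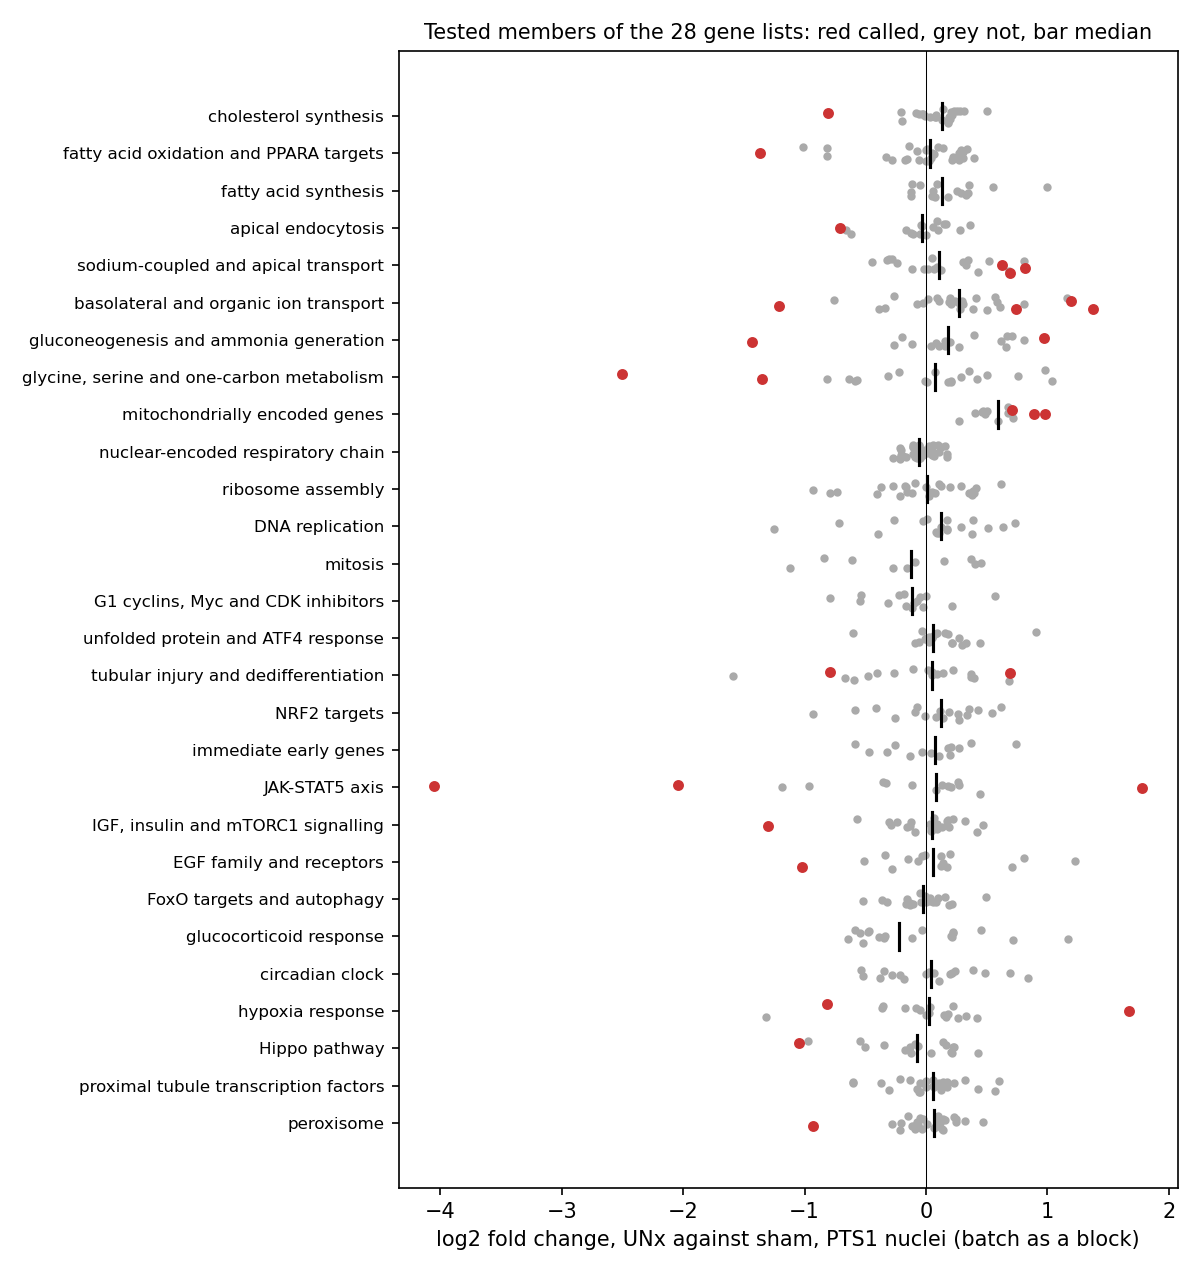
Log2 fold change, UNx against sham with batch as a block, of each tested gene in the 28 gene lists, 1 row per list; red points were called, grey points were not, and the black bar is the list's median. Medians lie between −0.22 and 0.60. No list is called as a whole, and red points such as Cish, Keg1 and Ehhadh are a minority of their lists.

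The finer annotation divided S1 nuclei almost by surgery, so few nuclei of each mouse carried the less usual name. Slc5a12 was the gene with the highest fold over the other classes in finer PTS1 (30.46-fold) and second in finer UNx PTS1 (23.22-fold), and most of the top 10 genes were common to both. In finer PTS1 nuclei Keg1 stood at 6580.0 and 4515 CPM of the plain sum in sham and 1449 and 687.9 in UNx, the last 2 from 14 and 61 nuclei. In finer UNx PTS1 nuclei it stood at 2685 and 2614 in sham, from 14 and 16 nuclei, and at 938.6 and 949.0 in UNx. Keg1 was thus lower in UNx under either name. Cish stood at 48.4 and 44.6 CPM in sham nuclei of the first name and 32.5 and 17.9 of the second, and at 0 and 8.42 against 1.23 and 4.20 in UNx, where 14 nuclei gave the 0. Chst11 stood at 13.3, 46.2, 41.4 and 198.6 CPM in finer PTS1 and 48.7, 29.9, 118.4 and 220.0 in finer UNx PTS1. These are descriptions, since the names were made from the same expression values.

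The response of S1 was next set against those of PTS2 and PTS3, which come from the same 4 mice. With batch as a block 433 of 14293 genes (3.03%) were called in PTS2 and 362 of 14816 (2.44%) in PTS3. The difference between segments was tested as the interaction of segment and surgery. Without a term for batch it gave 0 called genes of 15451 against PTS2 (473 at an unadjusted p under 0.05) and 0 of 15682 against PTS3 (278). With a segment-by-batch term, added after the data were seen, it gave 34 genes against PTS2 (0.22%) and 159 against PTS3 (1.01%). In the first comparison 27 were more positive in S1 and 7 more negative, and in the second 118 and 41. Of the 27, 18 were lower in UNx in both segments, and 23 had the larger effect in PTS2. Of the 118, 56 were lower in both, and 89 had the larger effect in PTS3.

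Several genes that fell in S1 fell more steeply further down. Ehhadh had log2 fold changes of −1.37 ± 0.20, −2.51 ± 0.21 and −3.43 ± 0.22 in PTS1, PTS2 and PTS3. The S1 effect differed by 1.13 ± 0.13 from PTS2 and 2.05 ± 0.14 from PTS3 (adjusted p = 0.00807 and 2.01e-07). Its sham level differed too, with 99.3 and 116.4 CPM in S1 against 854 and 656 CPM in PTS3. Irs2 had −1.30 ± 0.16, −2.80 ± 0.18 and −3.28 ± 0.19, and the differences of 1.49 ± 0.17 and 2.00 ± 0.20 were called (adjusted p = 0.00807 and 1.42e-05). Ndrg1 followed the same order with −0.82, −1.70 and −1.95, and differences of 0.88 ± 0.12 and 1.11 ± 0.21 (adjusted p = 0.0186 and 0.00987). Hao2 had −0.93, −1.34 and −2.002, with a called difference from PTS3 of 1.06 ± 0.20 (adjusted p = 0.00832). Nr1h4, the bile acid receptor FXR, did not pass the test in S1 (−0.60 ± 0.14) and had −1.63 ± 0.15 in PTS3, a difference of 1.01 ± 0.13 (adjusted p = 0.000169).

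Gldc and Slc7a7 differed from the second segment. Gldc had −1.35 ± 0.14 in S1, −2.92 ± 0.16 in PTS2 and −0.76 ± 0.26 in PTS3, and the difference from PTS2 was 1.57 ± 0.16 (adjusted p = 0.00807). In PTS3 it stood at 1.85, 65.4, 2.21 and 32.6 CPM, close to absent in batch 3. Slc7a7 had −1.21 ± 0.14, −2.85 ± 0.23 and −1.67 ± 0.16, with a difference from PTS2 of 1.64 ± 0.19 (adjusted p = 0.00877). Cbfb differed from PTS2 by 0.80 ± 0.13 (adjusted p = 0.0448).

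Other genes moved more in S1 than in the last segment. Chsy1, a chondroitin synthase, had −1.35 ± 0.13 in S1, −0.91 ± 0.18 in PTS2 and −0.07 ± 0.16 in PTS3, and the difference from PTS3 was −1.30 ± 0.16 (adjusted p = 0.00015). Its levels in S1 were 122.9, 91.3, 49.6 and 34.8 CPM. An antisense transcript, Gm26827, overlaps Chsy1 and stood at 110.7, 26.7, 33.3 and 7.5 CPM. Gm26827 fell by 1.76 ± 0.15 (adjusted p = 0.00129), with a called difference from PTS3 of −1.15 ± 0.22 (adjusted p = 0.00911). Whether reads of this pair were told apart was not tested. Nuak2 had −1.68 ± 0.17, −0.91 ± 0.14 and −0.71 ± 0.21, a difference from PTS3 of −0.996 ± 0.24 (adjusted p = 0.0488). Il34 rose in S1 (1.71 ± 0.20) and PTS2 (1.47 ± 0.15) and was at 0.12 ± 0.20 in PTS3, a difference of 1.57 ± 0.24 (adjusted p = 0.0014). Keg1 had −2.51, −2.88 and −2.63 in the 3 segments, and Cish −4.05, −5.51 and −5.08, with no called difference.

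Lpl, lipoprotein lipase, picked after its values were seen, had 0.21 ± 0.31, −1.40 ± 0.44 and −1.64 ± 0.51, and S1 differed from both (1.49 ± 0.18 and 1.72 ± 0.19, adjusted p = 0.00877 and 3.88e-05). In none of the 3 segments did Lpl itself pass the test. None of these segment differences passed without the batch term.

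**Figure D5:**
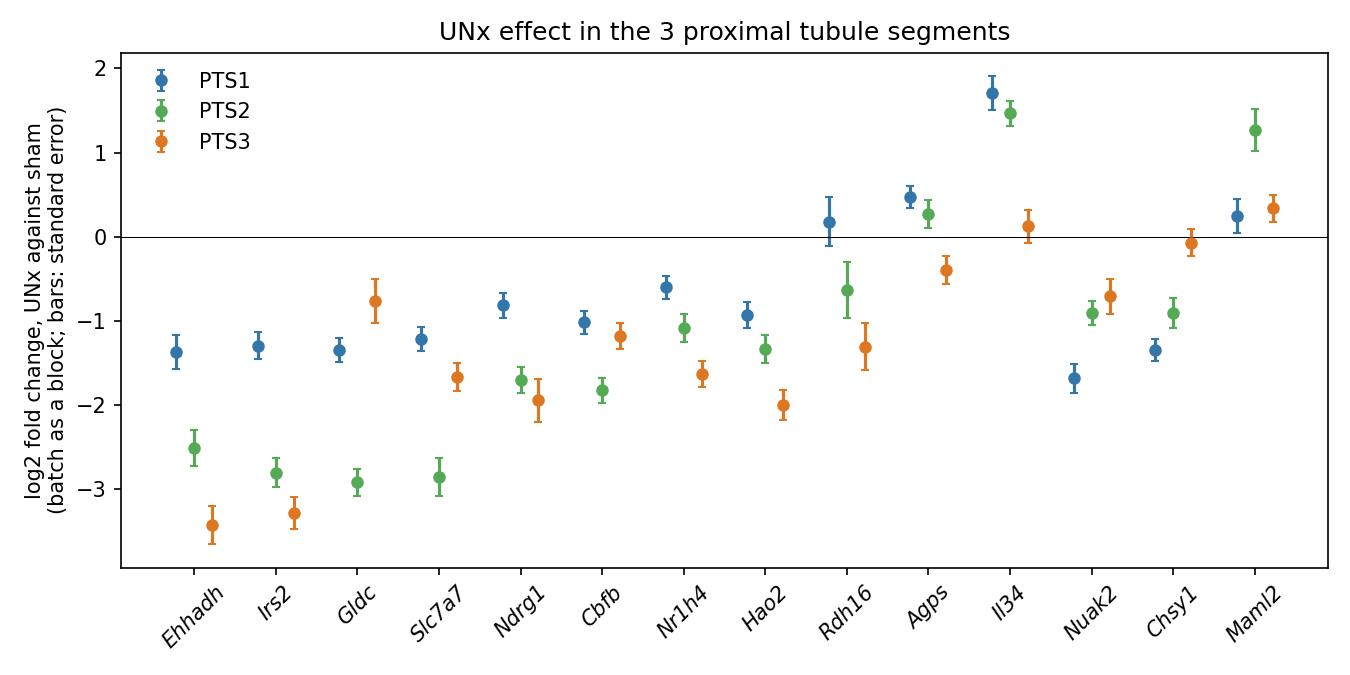
Log2 fold change, UNx against sham with batch as a block, in PTS1 (blue), PTS2 (green) and PTS3 (orange) nuclei for 14 genes with a called segment difference; bars are standard errors. Ehhadh and Irs2 fall step by step from −1.37 and −1.30 in PTS1 to −3.43 and −3.28 in PTS3, whereas Chsy1 falls in PTS1 and is near 0 in PTS3.

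Whole-kidney RNA of other mice at 24 h gave a partly different picture. There 3852 of 14104 genes (27.3%) were called, and fewer cells of a type and less RNA per cell cannot be told apart. Of the 98 genes that rose in S1 nuclei 88 were measured in bulk, and 15 (17.0%) were called higher and 7 (7.95%) lower, beside 15.1% and 14.0% of all genes tested in both. Of the 151 that fell, 90 were measured, and 20 (22.2%) were called lower and 14 (15.6%) higher. Slc25a25 and Pck1 were higher in both kinds of sample. In bulk Slc25a25 ran from 44.1 through a median of 53.0 to 64.2 CPM in sham and from 68.5 through 130.2 to 183.1 CPM in UNx, without overlap (log2 fold change 1.25 ± 0.18, adjusted p = 3.69e-04). Pck1 had bulk medians of 1639 and 2811 CPM, also without overlap (0.75 ± 0.13, adjusted p = 0.00111).

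Keg1, Gldc, Cish and Bcl6 had bulk changes opposite to those of S1 nuclei. Keg1 ran from 974.2 through 1124 to 1319 CPM in sham and from 1110 through 1439 to 1772 CPM in UNx (0.36 ± 0.11, adjusted p = 0.0231). Cish ran from 6.98 through 18.9 to 35.3 CPM in sham and from 28.1 through 37.1 to 44.5 CPM in UNx (0.84 ± 0.27, adjusted p = 0.0325). Gldc had medians of 133.7 and 173.2 CPM (0.38 ± 0.12, adjusted p = 0.0222). Bcl6 had medians of 55.6 and 8.58 CPM (−1.72 ± 0.57, adjusted p = 0.0356), with sham values from 10.2 to 92.9 CPM and UNx values from 7.71 to 44.5 CPM. The groups overlapped in all 4 genes. The bulk mice were other animals of another labelled batch, their RNA came from whole tissue and not nuclei, and the difference between the bulk and S1 effects was not tested.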

How the data were processed

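The authors made estimated counts of UMIs per gene and nucleus and deposited them without normalization (13.9% of values above 0 not whole); the submitters' processing notes give mm10, alevin and Seurat. Their bulk table holds estimated counts from Salmon 1.5.0 on GRCm39, per the same notes, summing to 14.9 to 24.1 M (1e+06) per library at 24 h. How nuclei were filtered, and whether doublets were removed, is not given in the sources used here. A doublet caller was not applied.

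Counts of PTS1 nuclei were summed per mouse, rounded and tested in edgeR 4.0.16 (R 4.3.3; quasi-likelihood, filterByExpr, TMM, two-sided; Benjamini-Hochberg over all genes tested, threshold 0.05). The main fit had no block (2 residual degrees of freedom), and a second fit had the labelled batch as a replicate block (1). The labels put same-numbered replicates in 1 batch, and their deviations from the group means correlated at r = 0.893 over 5304 genes. DESeq2 1.42.0 and limma 3.58.1 served as alternatives. Fits were tested on simulated data.

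The members, 28 gene lists (717 genes, 640 tested), 20 marker lists and the naming rule were chosen with earlier results of these data known. The rule named the S1 markers, the 8 genes of lowest unblocked p in each direction whose groups did not overlap and whose mean log2 CPM reached 5 (none called without a block), 2 genes per list and the extremes of each segment test, passing over predicted genes. Other genes were named after their values were seen. Promoter sequences are from RefSeq; that of Socs2 was not used here.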

Additional observations from a re-analysis of the deposited data

Results flagged for a closer look

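The S1 effect of UNx differed from that of PTS2 or PTS3, by the test with a segment-by-batch term, for the following named genes; none passed without that term (adjusted p from 0.637 to 1). Against PTS2 the log2 difference of effects (S1 minus PTS2) was 1.127 for Ehhadh, 1.485 for Irs2, 1.567 for Gldc, 1.639 for Slc7a7, 0.8779 for Ndrg1, 0.8016 for Cbfb and 0.7834 for Rdh16, a retinol dehydrogenase. It was −1.005 for Maml2, a coactivator of Notch signalling. Maml2 rose in PTS2 (1.27 ± 0.25, adjusted p = 0.0198) from 8.62 and 71.8 to 34.4 and 118 CPM and was at 0.25 ± 0.20 in S1. Against PTS3 the difference was 2.05 for Ehhadh, 2.001 for Irs2, 1.111 for Ndrg1, 1.015 for Nr1h4, 1.062 for Hao2, 1.464 for Rdh16 and 1.574 for Il34. It was 0.8594 for Agps, an enzyme of ether lipid synthesis, −1.3 for Chsy1 and −0.9963 for Nuak2. Rdh16 was at 0.18 ± 0.29 in S1 and −1.31 ± 0.28 in PTS3, and neither Rdh16 nor Agps was called in S1.

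In the bulk mice at 24 h, single libraries stood apart from the other 5 of their group in 4 of 154 groups checked, where chance gives about 1 in 20. Irs2 was at 35.09 CPM in sham 1, beside 20.61 in the next library, and Hyou1 at 159.0 CPM in sham 4, beside 117.9. Nrg4 was at 4.764 CPM in UNx 4, beside 1.05, and Osbpl10 at 15.06 CPM in UNx 6, beside 13.0.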

How the results depend on the processing

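Without a block, the count of 0 called genes in S1 nuclei became 8 with the DESeq2 Wald test and 249 with the replicate block (98 higher, 151 lower), and was 0 under the other planned settings. It was also 0 in each of the 4 fits that leave out 1 mouse, where an arm has 1 mouse assumed to vary like the other group, and this says nothing about stability. Adding further changes to the replicate block gave 910 genes with no filter, 118 among finer-named PTS1 nuclei alone and 454 with nuclei thinned to 3000 UMIs; of the 249 genes 249, 47 and 223 were called there again, and 20 of 246 tested changed direction among the finer-named nuclei. The finer-named nuclei were 14 and 61 in the UNx mice and were named from expression, so calls kept or lost there say nothing about stability. The other 6 blocked settings gave 171 to 349 genes. Of the 249, DESeq2's Wald test called 154 again, and the fit without mitochondrially encoded genes 188 of 246 tested. Without nuclei over 30000 UMIs 247 were called again, and with DESeq2 size factors or limma voom all 249. With at least 50 counts in every mouse, 185 of 185 tested were. The segment differences, 0 in both main fits, became 2 against PTS2 with the DESeq2 Wald test, 2 with no filter and 34 with the replicate block as a segment-by-batch term, and 4 and 159 against PTS3 with the Wald test and that term. The bulk count of 3852 was 3186 with a replicate block, where mice share only a number, and 3230 to 4065 otherwise. The share of S1 nuclei was 5.3 percentage points lower in UNx (−5.30), −11.5 points of proximal tubule nuclei, and −6.51 to −4.09 with 1 mouse left out.

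Over all named genes and settings, 923 values kept direction and call, 37 gained a call and 36 changed sign. Leaving out 1 mouse of the unblocked fit, which then compares unequal batches, gave log2 fold changes from −0.08817 to 0.09132 for Slc5a2, −1.174 to 0.4159 for Slc5a12, −0.09737 to 0.1613 for Slc34a1, −0.5943 to 0.09125 for Slc6a19 and −0.04279 to 0.6227 for Slc2a2. It gave −0.128 to 0.5561 for Slc4a4, −1.058 to 2.485 for mt-Nd1, −2.432 to 4.373 for mt-Nd5 (both lowest without UNx 2), −0.1117 to 0.4662 for Uqcrc2, −1.315 to 2.099 for Maml2 and −0.6382 to 0.9644 for Rdh16. With finer-named PTS1 nuclei alone the sign turned for Slc34a1 (−0.337), Cyp2j13 (−0.237), Stard4 (−0.1723), Cpt1a (−0.1791), Clcn5 (−0.08695), Slc13a2 (−0.1851), Slc20a2 (−0.1264), Slc47a1 (−0.1098), Utp4 (−0.08372), Top2a (0.1063), Arntl (0.7484), Car9 (0.1283), Maml2 (0.9487) and Rdh16 (−0.2883). Thinning turned Slc34a1 (−0.01834), Ndufs1 (−0.09005), Cdk4 (0.2409) and Maml2 (0.1309). Slc34a1 also turned with at least 50 counts in every mouse (−0.02542), and Maml2 with the replicate block (0.2481) and limma voom (0.2092). The cause was not tested. Over the 28 lists, medians moved by more than the spread between mice in 45 values and by less in 317, and the mitosis list gave no value at 50 counts. Scaling with DESeq2 size factors moved the median of all genes from −0.03 to −0.02. Depth limits the genes under a few CPM, since S1 counts of UNx 2 summed to 4773080.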

Other observations

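The further called genes of S1 nuclei given here were chosen after their values were seen. Alas1, the rate-limiting enzyme of heme synthesis, stood at 177.3, 200.8, 74.1 and 96.0 CPM and fell by 1.16 ± 0.12 (adjusted p = 0.00329). Slc40a1, the iron exporter ferroportin, stood at 79.5, 41.3, 21.7 and 21.9 CPM and fell by 1.44 ± 0.22 (adjusted p = 0.0167). Both UNx mice were below both sham mice for these genes. Clec2h, 1 of the 10 genes that most set finer PTS1 apart, stood at 771.1, 305.2, 188.0 and 160.2 CPM and fell by 1.50 ± 0.23 (adjusted p = 0.0172), but was at −0.42 among finer-named PTS1 nuclei alone. Cyp4b1, a cytochrome P450 of fatty acids and xenobiotics, stood at 444.9, 585.2, 935.9 and 1166 CPM and rose by 1.03 ± 0.14 (adjusted p = 0.0106). Among finer-named PTS1 nuclei alone it was at −0.41. For Clec2h and Cyp4b1 alike, that subset of few UNx nuclei, named from the same expression values, decides nothing. Slco3a1, an organic anion carrier, stood at 30.9, 165.6, 218.0 and 301.0 CPM and rose by 1.80 ± 0.36 (adjusted p = 0.0445), called in 6 of 9 other settings. Of the 8 S3 markers 4 rose, beside 0.656% of all genes, none fell, 6 were above 0, and the median was 0.75. Besides Slc5a8 and Slc5a10, the 4 were Atp11a, a lipid flippase (1.19 ± 0.15), and Acsm3, a medium-chain acyl-CoA synthetase (0.80 ± 0.14), with adjusted p-values of 0.00857 and 0.0276. Slc7a13 (32.7, 226.9, 24.9 and 206.8 CPM, −0.25 ± 0.13) and Slc22a19 (−0.76 ± 0.25) were below 0 and did not pass the test. Outside the proximal tubule Atp11a stood at 89.0, 346, 110 and 563 CPM and Acsm3 at 25.7, 112, 37.7 and 168 CPM, above S1 in all mice but UNx 1 for Atp11a, and the part of RNA from other nuclei was not tested.

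The share of S1 nuclei with at least 1 UMI was compared after each nucleus was thinned to 3000 UMIs, which left out 12 nuclei of sham 1 and 1 of UNx 1. For Cish the share was 13.1% and 9.85% in sham and 0.260% (95% exact interval 0.0315 to 0.936%) and 0.698% (0.144 to 2.02%) in UNx. Unthinned it was 34.0%, 36.3%, 1.17% and 4.42%. In medullary thick ascending limb nuclei, with median depths of 6133.5 to 7250 UMIs, the thinned Cish share was 14.3%, 14.5%, 9.76% and 6.78%. For Keg1 the share was 99.3%, 99.4%, 80.0% and 85.1% in S1, beside 23.0%, 68.9%, 16.4% and 45.5% in the thick limb, and unthinned it stayed at or above 97.2% in S1. For Nmrk1 it was 83.2%, 72.5%, 39.1% and 30.0%, beside 23.8%, 25.4%, 16.2% and 13.8%, and unthinned 97.0%, 96.7%, 77.8% and 62.3%. For Chst11 it was 3.27%, 7.81%, 25.6% and 37.7%, beside 22.8%, 19.7%, 23.9% and 25.4%, and unthinned 8.97%, 24.7%, 48.4% and 61.2%. For Cd36 the S1 share was 2.11%, 10.2%, 8.84% and 33.5%, beside 8.11%, 15.5%, 8.84% and 38.4% in the thick limb, so S1 did not stand above it in any mouse at 3 digits and no expression is read from these shares (unthinned 6.99%, 35.9%, 24.8% and 65.1% in S1). For Slc5a2 it was 83.4%, 84.9%, 85.3% and 82.8%, beside 3.21%, 23.3%, 4.05% and 18.9%, and unthinned 94.2%, 97.0%, 97.7% and 94.7%.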
